A study of Mus musculus with 94 samples.

Results

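RTS0065414 and RTS0077684 are 2 of the 20175 probes of the mouse whole transcriptome panel that was read in every segment by GeoMx digital spatial profiling (DSP). In DSP, probes carrying a photocleavable barcode are hybridized to a tissue section, and barcodes are released by light from chosen cells and counted. Both probes were chosen by their values on day 14 in tubules, as those with the smallest adjusted p among probes higher with entospletinib than with vehicle. The files list barcode identifiers without gene names, so the genes that the probes target are not named here and no probe sequence is shown.

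The 94 segments comprised 46 macrophage segments (IBA1+) and 48 tubular segments (CD10+PanCK+ or PanCK+) from 14 FFPE kidney sections of male C57BL/6 mice, whose ages are not given. Unilateral renal ischemia-reperfusion injury (IRI) was followed for 1, 7, or 14 days under vehicle or entospletinib, begun 24 hours before surgery according to the labels, and uninjured kidneys, contralateral by the labels, served as control. Each of the 7 groups had 2 sections, distinguished by a label prefix, and the labels do not say whether these came from separate mice, so p-values measure the spread between sections. The time of the first dose is uncertain, since the study's methods place it within the hour before surgery, with further doses only in the groups kept beyond day 1. The areas profiled lay in cortex or medulla and were picked by the operator from the stained sections, leaving glomeruli out.

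Entospletinib inhibits spleen tyrosine kinase (SYK), a kinase of leukocytes that relays signals from immune receptors. IRI injures tubular epithelium, and the outer medulla, whose straight proximal tubules work at low oxygen tension, is known to be especially vulnerable. PanCK marks epithelial keratins, CD10 is a brush border enzyme of the proximal tubule, and IBA1 is a cytoskeletal protein of macrophages. The markers of both compartments could not be looked up by gene name, so the compartments are those of the labels.

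Counts of unique molecular identifiers (UMIs) reached 77621 to 11699181 per tubular segment and 16693 to 947255 per macrophage segment. Levels are given as CPM (counts per 1000000 counts), a probe's share of all counts of a segment or of the summed segments of a section. The median probe stood between 19.2 and 29.0 CPM in the tubular section sums and between 21.2 and 30.2 CPM in the macrophage section sums. Negative probes, which set the background, could not be told from the others, so a level near the median probe cannot be separated from nonspecific binding. Sequence of the 2 probes and the position of their targets in the genome were not used here.

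In control tubules both probes were above most of the panel. RTS0065414 was at 78.3 and 46.1 CPM in the 2 control section sums, above 89.7% and 76.6% of all probes. RTS0077684 was at 69.3 and 52.0 CPM, above 87.9% and 80.7% of all probes. Control sections differed from each other, and the first was the higher of the pair for both probes.

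Over the tubular segments of each group, RTS0065414 ran in the controls from 37.4 to 107 CPM with a median of 47.8 (6 segments). Under vehicle it ran from 23.5 to 48.7 CPM with a median of 38.8 on day 1, from 22.9 to 34.9 CPM with a median of 28.4 on day 7, and from 14.2 to 32.6 CPM with a median of 19.5 on day 14 (6, 6, and 8 segments). Every vehicle segment of days 7 and 14 was thus below every control segment. With entospletinib it ran from 20.5 to 87.8 CPM with a median of 38.2 on day 1, from 40.0 to 89.9 CPM with a median of 50.6 on day 7, and from 52.4 to 193 CPM with a median of 94.5 on day 14 (7, 6, and 9 segments). The entospletinib and vehicle segments overlapped on day 1 and did not overlap on days 7 and 14. The day 14 segments entered the choice of the probe. How many of all probes separate the groups in this way was not counted.

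RTS0077684 ran in control tubular segments from 42.0 to 91.9 CPM with a median of 50.6. Under vehicle its medians were 43.1, 43.8, and 34.5 CPM on days 1, 7, and 14, within 30.8 to 57.7, 34.7 to 60.5, and 17.7 to 48.2 CPM. With entospletinib its medians were 56.6, 81.2, and 92.2 CPM, within 37.1 to 71.9, 52.9 to 112, and 12.9 to 129 CPM. Vehicle and control segments overlapped on all 3 days, and so did the vehicle and entospletinib segments, on day 14 by 1 segment.

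**Figure D1:**
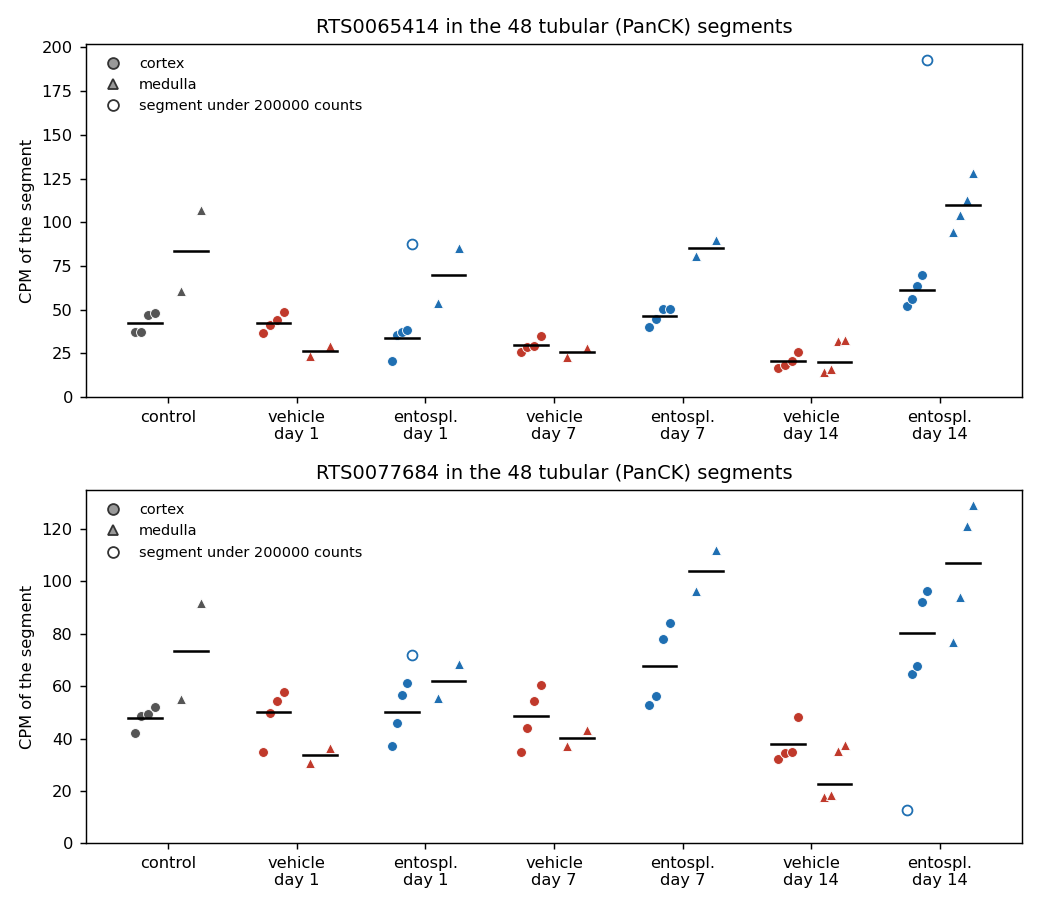
Levels in CPM of RTS0065414 (upper panel) and RTS0077684 (lower panel) in each of the 48 tubular segments by group, with cortex as circles, medulla as triangles, segments under 200000 counts as open symbols, and the mean of the 2 section values of a region as a black line. In the medulla the control and entospletinib segments lie above the vehicle segments of every day, those of day 14 having entered the choice of the probes. In the cortex the vehicle and entospletinib segments of day 1 overlap. The cortical section values of RTS0065414 on day 1 do not, at 30.2 and 37.7 CPM with entospletinib and 39.5 and 45.6 CPM with vehicle. How many of all probes separate the groups like this, in medulla or in cortex, was not counted.

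The highest and the lowest day 14 values with entospletinib came from a single shallow segment. A pair of cortical regions, on day 1 and on day 14 with entospletinib, were collected as 2 tubular segments, of which the first held 125254 and 77621 counts. In the latter, RTS0065414 had 15 counts (193 CPM) and RTS0077684 had 1 count (12.9 CPM). Leaving both shallow segments out moved the log2 fold changes between groups by less than their SE and changed none of the calls for the 2 probes in tubules.

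On day 14, the time at which the probes were chosen, RTS0065414 was at 20.0 and 20.9 CPM in the vehicle tubular section sums and at 97.5 and 80.4 CPM with entospletinib. RTS0077684 was at 31.2 and 28.3 CPM with vehicle and at 102 and 91.1 CPM with entospletinib. The fitted log2 differences between entospletinib and vehicle were 2.38 and 1.97, and 6.15% of all probes were called in that comparison, which the choice of the probes used. A probe counted as called when edgeR's quasi-likelihood test on section sums gave it a Benjamini-Hochberg adjusted p below 0.05 and a log2 fold change beyond 1 in either direction. Between vehicle and control 6.29% of probes were called, and the log2 differences of the 2 probes were -1.85 and -1.27, with the same vehicle sections that entered the choice. By region these were -2.34 and -1.96 in medulla and -1.23 and -0.52 in cortex. The last was not called, being under the minimum fold with an adjusted p of 0.254 in edgeR's test on cortex alone. By adjusted p the probes took places 1 and 2 among the 14562 probes higher with entospletinib, at 1.58e-04 and 1.79e-04, and the next probe, RTS0065768, stood just outside at 2.25e-04 with a larger log2 difference of 2.86. Among all probes of either direction, the 2 chosen probes were at places 145 and 162 by p. The median log2 difference of all probes in this comparison was 0.33.

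Relative to the rest of the panel, vehicle tubules of day 14 held RTS0065414 above only 35.0% and 48.4% of probes, and its level was 0.741 and 0.952 times that of the median probe. RTS0077684 stayed just above the middle of the panel, at 1.15 and 1.29 times the median probe. With entospletinib both probes were above 90.5% to 93.6% of the panel.

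The order of the 7 groups by mean level in tubular section sums (mean ± SD, n = 2 sections) ran, for RTS0065414, from vehicle day 14 (20.5 ± 0.619 CPM) through vehicle day 7 (28.2 ± 2.97), vehicle day 1 (40.3 ± 3.86), entospletinib day 1 (54.4 ± 13.1), entospletinib day 7 (60.8 ± 1.11), and control (62.2 ± 22.8) to entospletinib day 14 (89.0 ± 12.1). The sections of entospletinib day 1, entospletinib day 7, and control overlapped as neighbors in this order, and the other neighbors did not. For RTS0077684 the order was vehicle day 14 (29.8 ± 2.10 CPM), vehicle day 7 (46.0 ± 9.61), vehicle day 1 (47.9 ± 6.89), entospletinib day 1 (57.4 ± 0.307), control (60.7 ± 12.2), entospletinib day 7 (83.3 ± 2.45), and entospletinib day 14 (96.7 ± 7.92). Here vehicle day 7 overlapped vehicle day 1, and entospletinib day 1 overlapped control. For both probes the 3 vehicle groups were therefore at the low end of the order in these sums, as in medulla alone. Cortex alone gave another order. For RTS0077684 control (47.9 CPM) was there below vehicle days 7 and 1 (48.7 and 50.1). For RTS0065414 entospletinib day 1 (34.0 CPM) was there below vehicle day 1 (42.6). The day 14 tubules entered the choice of the probes, and how many probes share such an order was not counted.

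To follow the loss back in time, days 1 and 7, whose levels were not compared in choosing the probes, were tested on tubular section sums. The sums of these days did enter the shared estimate of spread behind the adjusted p that chose the probes. Such a choice can favor probes with a small estimated spread. The SE and adjusted p of days 1 and 7 in tubules are therefore not free of the choice. How far it lowers them was not tested. On day 7 RTS0065414 fell against control by 1.32 ± 0.26 on the log2 scale (± SE, adjusted p = 0.0276), from 78.3 and 46.1 to 26.1 and 30.3 CPM, among 1.05% of probes called. RTS0077684, at 39.2 and 52.8 CPM, was not called (log2 fold change -0.56 ± 0.22, adjusted p = 0.262). On day 1 neither was called, with log2 fold changes of -0.73 ± 0.26 (adjusted p = 0.423) and -0.43 ± 0.22 (adjusted p = 0.743), where 0.149% of probes were. Both day 1 values turned on the control sections, being -0.15 and -0.08 without the first and -1.15 and -0.73 without the second, and the day 7 value of RTS0077684 was likewise -0.21 or -0.85. Without the first or the second vehicle section it was -0.31 or -0.87. The day 7 call of RTS0065414 rested on all 4 sections but the second control, being lost without the first control section (log2 fold change -0.74), without the first vehicle section (-1.15), or without the second (-1.50).

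Entospletinib against vehicle on day 7 gave a log2 fold change of 1.25 ± 0.26 for RTS0065414 (adjusted p = 0.0482), whose level was 60.0 and 61.6 CPM with the inhibitor and 26.1 and 30.3 CPM with vehicle. It was among 0.664% of probes called, of which 3 were higher and 131 lower with entospletinib. RTS0077684 was at 81.6 and 85.1 CPM against 39.2 and 52.8 CPM (log2 fold change 1.00 ± 0.22, adjusted p = 0.0678) and missed the call. The call of RTS0065414 was near the threshold, since it was lost without any 1 of the 4 sections (adjusted p of 0.135 to 0.558) and with TMM normalization (adjusted p = 0.0915), while the log2 fold change stayed between 1.09 and 1.44. The median of all probes in this comparison was 0.12 with upper quartile and 0.02 with TMM normalization, against which the change of both probes is to be read.

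On day 1 neither probe was called between entospletinib and vehicle in summed tubules, with log2 fold changes of 0.45 ± 0.26 and 0.29 ± 0.22 (adjusted p = 1.000 for both). Of all probes 0% were called, 100 had an unadjusted p under 0.05, and DESeq2 on the same sums called 3. The difference of the entospletinib effect between day 7 and day 1 was 0.80 ± 0.37 and 0.71 ± 0.31 on the log2 scale and was not called (adjusted p = 0.992 for both), where 0.104% of probes passed, judged by adjusted p without a minimum fold as for all such differences between effects.

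The sums mix the regions in unequal parts. Medullary segments held 18.7% and 11.5% of the tubular counts in the vehicle sections of day 1, against 51.3% and 37.3% in control, 60.4% and 46.5% with entospletinib on day 1, and 27.9% to 63.5% in the sections of days 7 and 14. Each region was therefore also fitted alone. In control and on days 1 and 7 each section had a single medullary tubular segment. The spread between medullary areas of a section was therefore not measured there. On day 14 the medullary areas of a section held RTS0065414 at 32.3 and 16.4 CPM and at 32.6 and 14.2 CPM with vehicle. With entospletinib they held it at 128 and 113 CPM and at 104 and 94.5 CPM.

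In the medulla both probes were already low one day after IRI under vehicle, near the median probe. RTS0065414 stood there at 1.08 and 0.853 times the median probe and RTS0077684 at 1.33 and 1.12 times. Levels so near the median probe cannot be separated from nonspecific binding. RTS0065414 was at 107 and 60.6 CPM in medullary tubules of the control sections and at 29.5 CPM (95% Poisson interval 22.2 to 38.4, 55 counts) and 23.5 CPM (15.7 to 33.7, 29 counts) in those of vehicle day 1. RTS0077684 went from 91.9 and 55.1 CPM in control to 36.5 CPM (28.3 to 46.3, 68 counts) and 30.8 CPM (21.8 to 42.2, 38 counts). These intervals cover counting error only, and the vehicle values of day 1 lie below both control values. How many of all probes do the same with 2 medullary segments per group was not counted. In the fit on medulla alone RTS0065414 fell by 1.82 ± 0.34 (adjusted p = 0.00491) and RTS0077684 fell by 1.29 ± 0.31 (adjusted p = 0.0181) on the log2 scale, among 6.02% of probes called. Sections were not left out in turn for the fits on a single region.

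In cortical tubules of the same sections the day 1 levels of vehicle and control overlapped. RTS0065414 was at 47.8 and 37.4 CPM in control and at 39.5 and 45.6 CPM with vehicle (log2 fold change -0.09 ± 0.21), and RTS0077684 was at 45.6 and 50.2 CPM in control and at 44.5 and 55.6 CPM with vehicle (-0.02 ± 0.30), both with an adjusted p of 1.000. When the difference itself was tested, the vehicle effect on day 1 was lower in medulla than in cortex by -1.64 ± 0.28 on the log2 scale for RTS0065414 (adjusted p = 0.00388), among 2.39% of probes that passed. For RTS0077684 the difference of -1.16 ± 0.49 was not called (adjusted p = 0.329). Without the second vehicle section of day 1 the call of RTS0065414 was lost (log2 difference -1.37, adjusted p = 0.0825), and without the first control section it stood at the threshold (-1.42).

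With entospletinib, medullary tubules of day 1 held RTS0065414 at 85.5 and 53.8 CPM and RTS0077684 at 68.3 and 55.5 CPM, within the range of the 2 control sections for RTS0077684 and reaching slightly below it for RTS0065414. Against vehicle, RTS0065414 rose in the medulla by 1.49 ± 0.34 on the log2 scale (adjusted p = 0.0401), among 1.47% of probes called. RTS0077684 missed the call at a log2 fold change of 1.00 ± 0.31 (adjusted p = 0.140). In the cortex the log2 fold changes were -0.32 ± 0.21 and 0.00 ± 0.29 (adjusted p = 1.000 for both). The entospletinib effect of day 1 was larger in medulla than in cortex by 1.79 ± 0.28 for RTS0065414 (adjusted p = 0.00306), among 1.85% of probes called, and the difference of 1.00 ± 0.48 for RTS0077684 was not called (adjusted p = 0.423). This call, too, was lost without the second vehicle section of day 1 (log2 difference 1.52, adjusted p = 0.0870).

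By day 7 the medulla held RTS0065414 at 22.9 and 28.4 CPM with vehicle, or 0.846 and 1.32 times the median probe. With entospletinib it was at 80.7 and 89.9 CPM. In the medulla alone it fell by 1.87 ± 0.32 against control (adjusted p = 0.00848), among 1.72% of probes called, and rose by 1.90 ± 0.32 with entospletinib against vehicle (adjusted p = 0.00616), among 1.57% of probes called. RTS0077684 was at 37.2 and 43.3 CPM with vehicle, or 1.37 and 2.01 times the median probe, and at 112 and 96.3 CPM with entospletinib. It rose by 1.52 ± 0.29 against vehicle (adjusted p = 0.0145), and its log2 fold change against control was -1.03 ± 0.29 (adjusted p = 0.0908).

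The cortex on day 7 gave smaller log2 fold changes that were not called. Against control they were -0.70 ± 0.22 for RTS0065414 (adjusted p = 0.246) and -0.14 ± 0.30 for RTS0077684 (adjusted p = 1.000), and with entospletinib against vehicle 0.79 ± 0.21 (adjusted p = 0.525) and 0.62 ± 0.29 (adjusted p = 1.000). The differences between medulla and cortex were not called on day 7 either. They were -1.09 ± 0.26 and -0.77 ± 0.46 for vehicle against control (adjusted p = 0.478 and 0.510), where edgeR called 0% of probes, 2082 had an unadjusted p under 0.05, and 1 was called after TMM normalization. For entospletinib against vehicle they were 1.12 ± 0.26 and 0.91 ± 0.45 (adjusted p = 0.185 and 0.336), where 0.0793% were called.

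**Figure D2:**
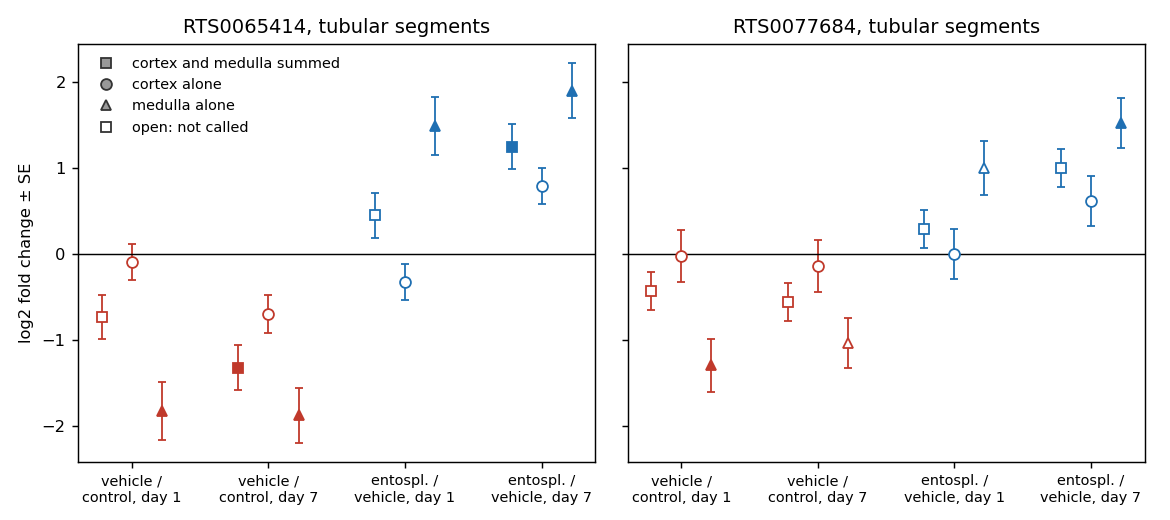
Log2 fold changes ± SE (edgeR) of both probes in tubular segments on days 1 and 7, for vehicle relative to control and for entospletinib relative to vehicle, with cortex and medulla summed (squares), cortex alone (circles), and medulla alone (triangles), filled where called. In each comparison the medulla lies farther from 0 than the cortex, for RTS0065414 at -1.82 against -0.09 for vehicle on day 1.

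The levels of medulla and cortex were also set side by side within each section. In tubules RTS0065414 was higher in medulla than in cortex in both control sections (log2 differences of 1.16 and 0.70) and in all 6 entospletinib sections (0.51 to 1.50). Under vehicle it was higher in medulla in 1 of 6 sections, and the differences ran from -0.94 to 0.15. RTS0077684 was higher in medulla in both control sections (1.01 and 0.13), in 4 of 6 entospletinib sections (-0.11 to 1.02), and in none of 6 vehicle sections (-1.09 to -0.12). The day 14 sections, which entered the choice of the probes, are part of these counts, which are a description. How many of all probes show such a split between vehicle and the other sections was not counted. Of the tests of the difference given for days 1 and 7, those of RTS0065414 on day 1 were called and the others were not.

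Over all 10 sections of control, day 1, and day 7, the difference between medulla and cortex was not called by a test with the section as a term. The log2 differences were 0.46 ± 0.23 for RTS0065414 (adjusted p = 0.404) and 0.16 ± 0.18 for RTS0077684 (adjusted p = 0.767), among 0.491% of probes called. In the exact two-sided sign-flip permutation test of the section differences, p was 0.154 (0.231 adjusted over the 6 tests of this kind, 6 of 10 sections higher in medulla) and 0.486 (0.486 adjusted, 5 of 10 sections).

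**Figure D3:**
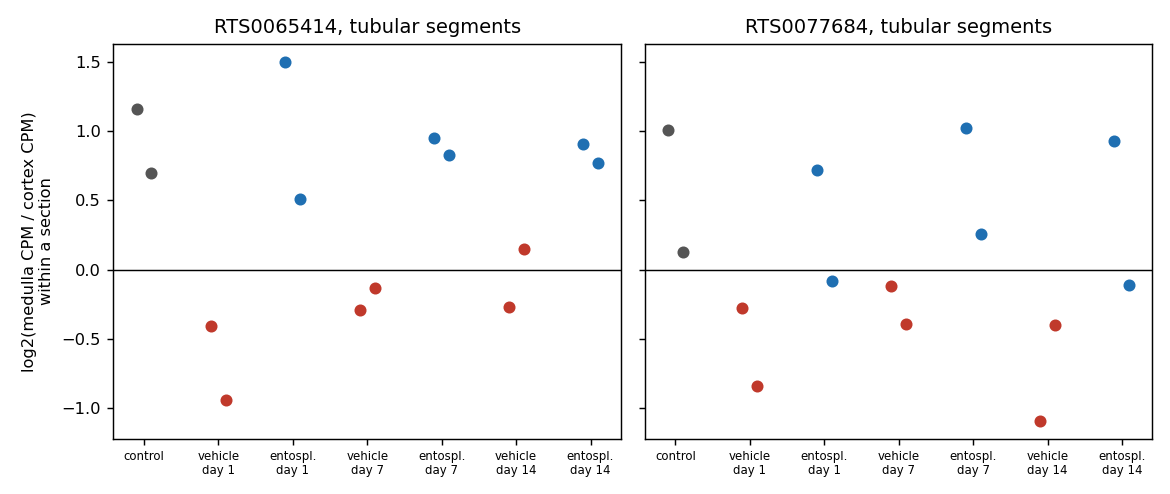
Log2 ratio of the medullary to the cortical tubular CPM within each of the 14 sections, by group, for both probes, with a horizontal line at equal levels. The control sections and, for RTS0065414, all entospletinib sections lie above the line, and the vehicle sections lie near or below it, from -0.94 to 0.15 for RTS0065414 and from -1.09 to -0.12 for RTS0077684. How many of all probes split in this way was not counted.

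Macrophage segments offered a readout that did not enter the choice of the probes, though they lie in the same sections. Single segments held 0 to 22 counts of RTS0065414 and 0 to 21 counts of RTS0077684, so levels are given for section sums with Poisson intervals. The 4 values of 0 counts all came from cortical control segments of 16693 to 31069 counts, where they allow levels of up to 96.6 to 180 CPM (3 counts). Totals differed by group, from 117693 to 634090 counts per section sum in control and entospletinib sections, 452768 to 719242 with vehicle on day 1, and 1222388 to 2773456 with vehicle on days 7 and 14. The part of depth in the results for macrophage segments was not tested.

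On day 14 RTS0065414 was at 15.5 CPM (95% interval 11.2 to 20.9) and 11.4 CPM (7.20 to 17.0) in the vehicle macrophage segments and at 68.8 CPM (48.4 to 94.8) and 44.0 CPM (28.7 to 64.4) with entospletinib. RTS0077684 was at 17.7 CPM (13.1 to 23.4) and 12.8 CPM (8.39 to 18.8) with vehicle and at 74.3 CPM (53.1 to 101) and 35.5 CPM (22.0 to 54.3) with entospletinib. Vehicle and entospletinib sections did not overlap for either probe. How many of all probes do not overlap between 2 sections per group was not counted. The tubules of these same sections chose the probes. With entospletinib RTS0065414 rose by 2.03 ± 0.38 (adjusted p = 3.89e-04) and RTS0077684 by 1.80 ± 0.33 (adjusted p = 3.64e-04) on the log2 scale against vehicle, among 4.07% of probes called. Both calls were lost without the first entospletinib section (1.65 and 1.16, adjusted p = 0.0556 and 0.245) and with cortex and medulla weighted equally (1.56 and 1.36, adjusted p = 0.288 and 0.145).

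Vehicle against control on day 14 also passed the test in macrophage segments. RTS0065414 fell by 1.61 ± 0.51 (adjusted p = 0.0466) and RTS0077684 fell by 1.90 ± 0.43 (adjusted p = 0.00226), among 6.94% of probes called. The control level was uncertain, at 81.5 CPM (43.4 to 139) and 20.1 CPM (7.39 to 43.8) for RTS0065414 and at 94.1 CPM (52.7 to 155) and 40.3 CPM (20.8 to 70.3) for RTS0077684. Without the first control section the log2 fold changes were -0.44 (adjusted p = 0.848) and -1.26 (adjusted p = 0.257), and neither was called. For RTS0065414 the call was also lost without the first (-1.84, adjusted p = 0.0540) or the second (-1.47, adjusted p = 0.158) vehicle section.

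On day 7 RTS0065414 was at 16.4 and 12.1 CPM with vehicle and at 59.9 and 25.5 CPM with entospletinib, the last from 3 counts (5.26 to 74.5). It rose by 1.97 ± 0.44 (adjusted p = 0.00317), among 4.94% of probes called. RTS0077684 was at 31.9 and 28.7 CPM with vehicle and at 75.7 and 68.0 CPM with entospletinib and rose by 1.37 ± 0.34 (adjusted p = 0.00840). Both calls were lost without the first entospletinib section (0.79 and 1.10 on the log2 scale, adjusted p = 0.897 and 0.648) and without the second vehicle section (1.78 and 1.31, adjusted p = 0.0533 and 0.0800). Vehicle against control on day 7, where 3.53% of probes were called, gave log2 fold changes of -1.60 ± 0.53 (adjusted p = 0.0910) and -0.98 ± 0.40 (adjusted p = 0.237), neither called. For RTS0065414 this comparison passed the test when the second control section was left out (-2.66, adjusted p = 0.00760).

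On day 1 RTS0065414 was at 20.9 and 15.5 CPM with vehicle and at 47.4 and 24.7 CPM with entospletinib in macrophage segments. RTS0077684 was at 18.1 and 30.9 CPM with vehicle and at 51.3 and 74.2 CPM with entospletinib. The entospletinib sections were the higher ones for both probes, and how many of all probes share this was not counted. The log2 fold changes of 1.00 ± 0.49 (adjusted p = 0.997) and 1.42 ± 0.40 (adjusted p = 0.816) were not called. In this comparison edgeR and DESeq2 called 0% of probes, and 882 had an unadjusted p under 0.05 in edgeR. Vehicle against control gave -1.13 ± 0.56 (adjusted p = 0.483) and -1.29 ± 0.47 (adjusted p = 0.240), where 0.717% of probes were called, and without the first control section that of RTS0065414 was 0.04. The entospletinib effect of day 14 minus that of day 1 was 1.03 ± 0.63 and 0.38 ± 0.52 and was not called (adjusted p = 0.920 and 1.000), where 0.00539% of probes were. For RTS0077684 it turned direction without the first entospletinib section of day 14 (-0.24) or the second vehicle section of day 1 (-0.01).

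**Figure D4:**
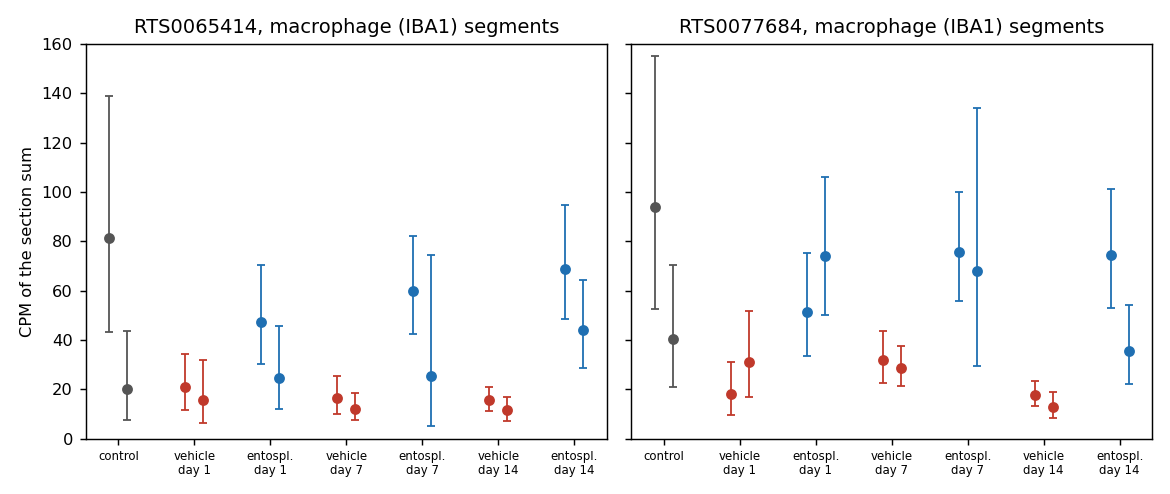
Levels in CPM of both probes in the macrophage section sums, 2 sections per group, with 95% Poisson intervals as bars. Vehicle sections lie at 11.4 to 20.9 CPM for RTS0065414 and at 12.8 to 31.9 CPM for RTS0077684, and the intervals are wide in the control and the second entospletinib day 7 sections.

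Compared with the tubular segments of the same 10 sections of control, day 1, and day 7, macrophage segments held RTS0065414 at a lower CPM in 9 of 10 sections, in 1 of them by 59.9 against 60.0. The mean log2 difference in CPM with 0.5 counts added was -0.73 ± 0.51 (SD, n = 10), negative in 8 of 10 sections, with p = 0.00781 in the exact two-sided sign-flip permutation test (0.0234 adjusted over 6 tests). In edgeR with the section as a term the log2 fold change was -0.76 ± 0.13 with an adjusted p of 2.59e-05, under the minimum fold for a call, and 2.03% of probes were called. RTS0077684 was lower in 8 of 10 sections as well, by -0.30 ± 0.53 (SD, n = 10; exact permutation p = 0.113, adjusted 0.227) or -0.42 ± 0.12 in edgeR (adjusted p = 0.0107), also under the minimum fold. Relative to the median probe of the same sums, RTS0065414 stood at 0.489 to 0.833 times in the 6 vehicle macrophage sums and RTS0077684 at 0.605 to 1.27 times, a range that cannot be separated from nonspecific binding. The share of tubular RNA in macrophage segments was not tested.

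Within macrophage segments RTS0065414 was higher in medulla than in cortex in 12 of 14 sections by CPM. With 0.5 counts added the log2 difference was 0.42 ± 0.46 (SD, n = 14), positive in 13 of 14 sections, with p = 0.00537 in the exact two-sided sign-flip permutation test (0.0234 adjusted over 6 tests). In edgeR with the section as a term the difference was 0.43 ± 0.19 and was not called (adjusted p = 0.243), where 0.893% of the 14228 probes tested were. The exceptions by CPM were the second vehicle section of day 1, with 2 medullary counts, and the second entospletinib section of day 7, with 1 medullary count (24.3 CPM against 26.1 CPM in cortex), whose sign turned with the added counts. RTS0077684 was higher in medulla in 7 of 14 sections, by 0.19 ± 0.83 (exact permutation p = 0.406, adjusted 0.486) or 0.07 ± 0.17 in edgeR (adjusted p = 0.960), a direction that turned without the first entospletinib section of day 7 (-0.04) or of day 14 (-0.01).

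The 2 probes followed each other over the 14 tubular section sums with a Pearson r of log2 CPM of 0.93, and with 0.80 over the 10 sums that leave out day 14. The probes most like RTS0065414 over the 14 sums were RTS0064694 (r = 0.96, 0.90 over the 10 sums) and RTS0064595 (r = 0.95, 0.92 over the 10 sums). For RTS0077684 they were RTS0064694 (r = 0.97, 0.93 over the 10 sums) and RTS0070960 (r = 0.95, 0.91 over the 10 sums). RTS0064694 thus headed both lists. It was at 294 and 165 CPM in the control, 93.7 and 91.3 CPM in the vehicle day 14, and 363 and 331 CPM in the entospletinib day 14 sums. These were the highest of 20175 correlations that share sections, depth, and mix of regions, and they are given as a description.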

How the data were processed

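The authors deposited raw UMI counts per probe for each segment, neither normalized nor filtered, made with the GeoMx NGS Pipeline (3.1.1.5 per the file headers, whereas the labels' protocol names another version). For each section, the segments of a compartment were added up across regions, using all 94 segments. The 2 probes and all comparisons were chosen with earlier results of these data known. Sums were tested across all probes with edgeR 4.0.16 in R 4.3.3 (filterByExpr, upper quartile normalization, robust quasi-likelihood test, Benjamini-Hochberg adjustment), with the 14 sums of a compartment sharing a single estimate of spread. SE is the absolute log2 fold change over the square root of F. DESeq2 1.42.0 and limma 3.58.1 served as alternatives. Regions of a section were not treated as replicates in the main test. Section differences in log2 CPM (0.5 counts added) were tested by exact sign flips. Depth ranged from 16693 to 11699181 counts per segment, and Poisson intervals (95%) cover counting error only. Scripts were tested on simulated data. Probes named beside the 2 were, for each, the pair with the highest correlation over tubular sums, and the next probe in the day 14 order. No pair of segments had identical counts, and sections of a group differed by more than sampling noise. Segments that the study excluded as outliers are not named, so none was left out. Negative probes, gene names, and probe sequences were not used here.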

Additional observations from a re-analysis of the deposited data

Results flagged for a closer look

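In control tubules the highest of 6 segments lay far from the others for both probes, at 107 CPM for RTS0065414 and 91.9 CPM for RTS0077684. Both values belong to the medullary segment of the first control section, and the group mixes cortex and medulla. In macrophage segments RTS0077684 reached 114 CPM in the highest of 6 segments with entospletinib on day 1 and 50.4 CPM in the highest of 6 segments with vehicle on day 7. These 4 values came from 28 groups of segments checked by Dixon's ratio, of which chance alone would mark about 1 in 20.

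The vehicle effect of day 1 on RTS0065414 differed between medullary and cortical tubules (log2 difference -1.64), as did the entospletinib effect of day 1 (1.79). Both differences passed edgeR's test of the difference itself. Both used the medullary tubular segments of the vehicle day 1 sections, which held 1863750 and 1235205 counts, fewer than the medullary tubular sum of any other section.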

How the results depend on the processing

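Of 443 values of the 2 probes recomputed under alternatives, 386 kept their direction and their side of the threshold, 34 lost a call, 7 gained one, 7 turned direction, and 9 values of the day 14 levels moved. Except where a single region or fewer sections enter by construction, the cause was not tested. Macrophage section sums held 3 to 52 counts of a probe. DESeq2 gave no adjusted p in 7 cases, all in macrophage segments. Where a section was left out, the lone section of its group was assumed to vary like the others.

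In tubules, the medulla alone gave calls for vehicle on day 1 (log2 -1.82 and -1.29, in the order RTS0065414 and RTS0077684), for entospletinib on day 1 (RTS0065414, 1.49) and on day 7 (RTS0077684, 1.52), the last also with equal weights of the regions (1.07). For RTS0065414 the cortex alone lost the day 7 calls (-0.70 for vehicle, 0.79 for entospletinib) and turned the entospletinib effect of day 1 (-0.32), and TMM lost the day 7 entospletinib call (1.16). In macrophage segments, the cortex alone turned the day 1 vehicle effect of RTS0065414 (0.01). It lost the day 14 calls for vehicle (-0.59 and -1.08) and entospletinib (1.63 and 1.14) and the day 7 entospletinib call of RTS0077684 (0.93), as the medulla alone did for RTS0065414 (1.86). Equal weights lost all 6 macrophage calls, for vehicle on day 14 (-1.16 and -1.30) and for entospletinib on day 7 (1.31 and 1.34) and day 14 (1.56 and 1.36). The day 14 tubular log2 ratio of entospletinib to vehicle, 2.12 and 1.70 in CPM, was 2.39 and 1.97 after upper quartile scaling, 1.56 and 1.08 in cortex, and 2.46 and 2.24 in medulla. That of vehicle to control, -1.60 and -1.03, was -1.04 and -0.34 in cortex and, for RTS0077684, -1.70 in medulla. Against upper quartile scaling, TMM shifted the panel's median log2 fold change from 0.33 to 0.09 (entospletinib) and from -0.30 to -0.09 (vehicle) in tubules on day 14.

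Without each section in turn, tubular RTS0065414 on day 7 ran from -1.74 to -0.74 for vehicle and from 1.09 to 1.44 for entospletinib. In macrophage segments RTS0065414 ran for vehicle from -2.16 to 0.04 (day 1), -2.66 to -0.45 (day 7), and -2.64 to -0.44 (day 14), and for entospletinib from 0.79 to 2.21 (day 7) and 1.65 to 2.28 (day 14). RTS0077684 ran from -2.67 to -1.26 for vehicle on day 14 and from 1.10 to 1.44 (day 7) and 1.16 to 2.21 (day 14) for entospletinib. Its effect of day 14 minus day 1 ran from -0.24 to 0.83 and its medulla to cortex difference from -0.04 to 0.19. For tubular RTS0065414 on day 1, the medulla minus cortex difference ran from -1.97 to -1.37 for vehicle and from 1.41 to 2.19 for entospletinib.

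The differences between the 2 label prefixes correlated over 0.1 in 15 of 21 pairs of groups in tubules (median r 0.334, from -0.552 to 0.722). In macrophage segments they did so in 7 of 21 (median r 0.0287, from -0.103 to 0.3). In tubules sections of the same prefix thus tended to deviate together, yet the prefix was not a term of the main test. With the prefix as a replicate block, macrophage RTS0065414 gained a call for vehicle on day 7 (-1.60, adjusted p = 0.0326), no other call of the 2 probes changed, and the probes called for vehicle on day 1 went from 30 to 73 in tubules and from 133 to 252 in macrophage segments.

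Over all alternatives, the number of probes called for vehicle in tubules ran from 0 to 1214 on day 1 (main test 30) and from 21 to 467 on day 7 (211), and for entospletinib from 0 to 296 (0) and from 11 to 317 (134). In macrophage segments it ran from 23 to 361 (133), 189 to 795 (655), and 641 to 1507 (1287) for vehicle, and from 0 to 34 (0), 58 to 1076 (916), and 189 to 881 (755) for entospletinib on days 1, 7, and 14.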
